A study of Mus musculus with 18 samples.

Results

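Genes of the major histocompatibility complex (MHC) and of antigen presentation were followed in RNA of mouse duodenal epithelium from WT mice and from mice labelled *Mtgr1-/-*. They were chosen by name, as every listed gene whose symbol starts with H2- and 14 further genes (*B2m*, *Tap1*, *Tap2*, *Tapbp*, *Tapbpl*, *Cd74*, *Ciita*, *Nlrc5*, *Psmb8*, *Psmb9*, *Psmb10*, *Erap1*, *Calr* and *Canx*). This gave 44 genes, 30 of them with the H2- prefix, of 17759, 17423 and 17612 genes listed for crypts, day 1 and day 3. Each of the 3 tables held 43 of them, since *H2-Eb2* was listed for crypts and day 1 only and *H2-Ea-ps* for day 3 only. Chromosome 17, which carries the mouse MHC, held 35 of the 44 genes.

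RNA was sequenced in bulk in 18 libraries, made from 3 WT and 3 *Mtgr1-/-* mice that were 8 to 12 weeks old, age-matched littermates of both sexes. From each mouse, freshly isolated duodenal crypts (day 0) and enteroids harvested 24 h (day 1) and 72 h (day 3) after plating were taken. Enteroids are 3-dimensional epithelial cultures grown from crypts, here in medium with EGF, Noggin and R-spondin, and all 6 mice were grown in the same medium. *Mtgr1* encodes a transcriptional corepressor that was lost in the whole body of the *Mtgr1-/-* mice, so that cells around the epithelium lacked it as well, and the strain of the mice is not given in the sources used here. *Mtgr1* is listed as *Cbfa2t2*, and its counts overlapped between the genotypes in crypts. Its normalized counts in mice 1, 2 and 3 were 614, 523 and 595 in WT crypts against 697, 466 and 534 in crypts labelled *Mtgr1-/-*, and the gene was not called at day 1 (limma, adjusted p = 0.0557) or day 3 (adjusted p = 0.686). Gene-level counts do not show whether the removed part of the gene was read, so the genotypes are given as labelled throughout.

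MHC class I molecules consist of a heavy chain and the light chain beta-2-microglobulin, and show peptides from the cell's own proteins to CD8+ T cells. The peptides are cut by the proteasome, carried into the endoplasmic reticulum by the transporter TAP and loaded there with the help of chaperones. MHC class II molecules are pairs of alpha and beta chains that are held by the invariant chain and then exchange it, in endosomes, for peptides shown to CD4+ T cells. NLRC5 switches on the class I genes and CIITA the class II genes. Professional antigen-presenting cells carry class II at high levels, and the epithelium of the small intestine is also known to express it, in part in response to interferon gamma.

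In brief, class II genes were lower in crypts and day 1 enteroids labelled *Mtgr1-/-*, while of the class I genes few were called in crypts and most were higher in enteroids. Of 40 genes tested in crypts, 0 were called higher and 10 lower at an adjusted p below 0.05 (limma with Benjamini-Hochberg adjustment over all genes), while 1.58% of all genes tested were called higher and 3.15% lower. At day 1, 18 of 38 were called higher and 7 lower, against 30% and 28.9% of all genes, and at day 3 20 of 38 were called higher and 4 lower, against 29.9% and 29.1%. In crypts, *Canx* alone had an unadjusted limma p below 0.05 in the higher direction, and edgeR and DESeq2 on recovered reads also called 0 higher. With a change of at least 2-fold as well, 0 were higher and 10 lower in crypts (all genes, 1.04% and 2.5%), 13 and 7 at day 1 (10.4% and 10.6%) and 8 and 2 at day 3 (11.1% and 8.91%). The median log2 fold change of the genes tested was -0.41, 0.70 and 0.50 at the 3 time points, and that of all genes 0.0076, -0.0080 and 0.0026. Groups did not overlap for 1 gene in the higher and 22 in the lower direction in crypts (all genes, 12% and 13.5%), for 20 and 7 at day 1 (34.2% and 33.9%), and for 22 and 3 at day 3 (34.6% and 34.2%).

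**Figure D1:**
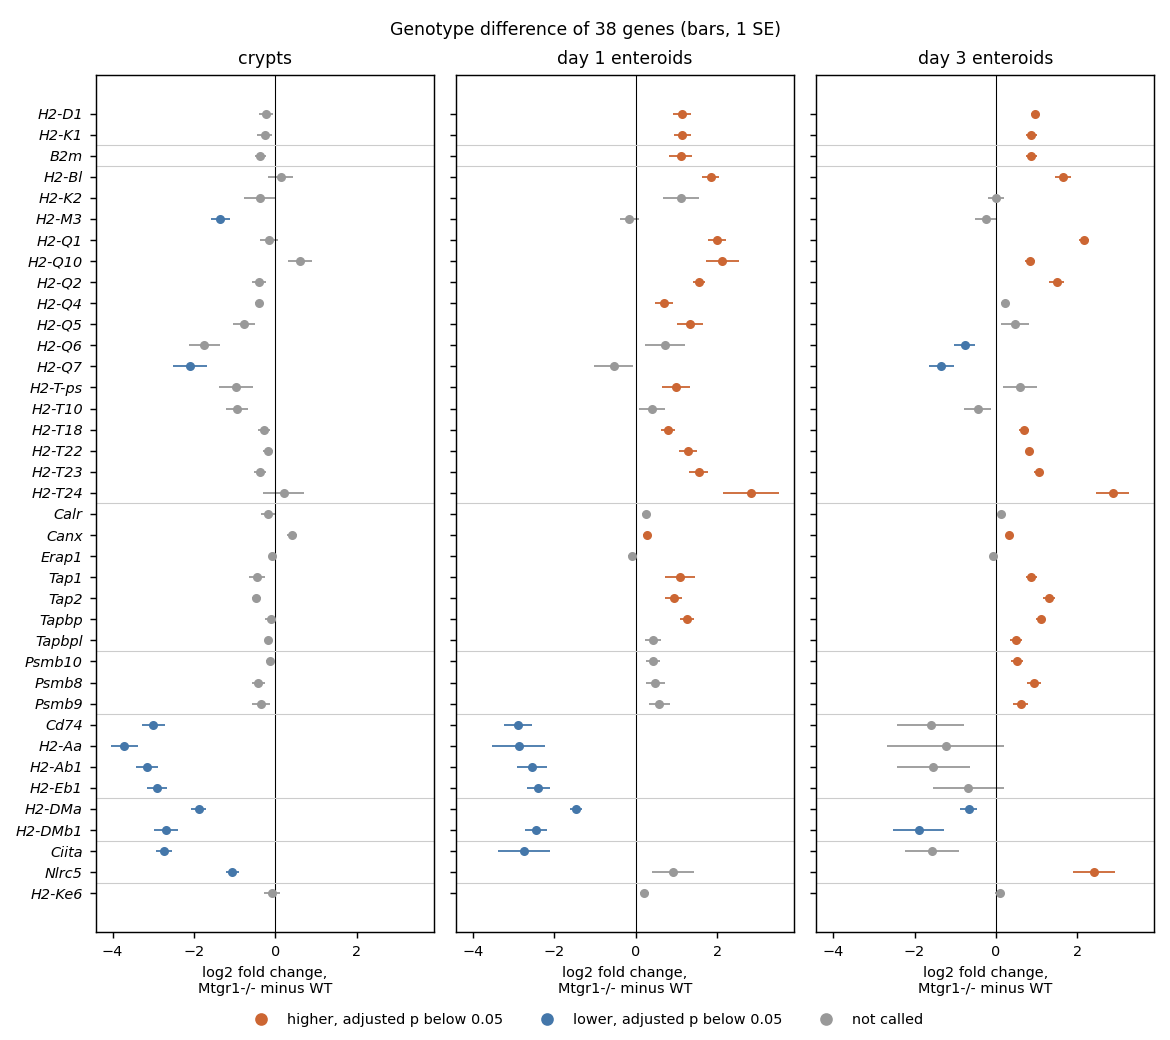
Log2 fold change (labelled *Mtgr1-/-* minus WT, x axis, on the log2(normalized count + 1) scale) of the 38 genes tested at all 3 time points, ordered by role, with bars of 1 standard error and 3 libraries per genotype. The class II genes and *Ciita* lie left of 0 in crypts and at day 1, and most class I genes lie right of 0 at day 1 and day 3.

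Some libraries stood apart in markers of immune cells, which also carry MHC genes. The summed level of 34 immune marker genes was 303, 189.8 and 1453 CPM in WT crypts of mice 1, 2 and 3 and 87.7, 72.4 and 192 CPM in crypts labelled *Mtgr1-/-*, with CPM computed as a gene's share of all normalized counts of its library. In enteroids it was 12.6, 14.8 and 36.9 in WT and 5.35, 7.9 and 48.3 in those labelled *Mtgr1-/-* at day 1, and 8, 7.67 and 9.35 against 6.64, 8.97 and 67.4 at day 3. WT crypts of mouse 3 and day 3 enteroids of mouse 3 labelled *Mtgr1-/-* thus had the highest sums of their time points, and both mouse 3 libraries of day 1 were above the other 4. *Ptprc*, which encodes the leukocyte antigen CD45, was listed at 408, 377 and 3795 in WT crypts and at 3.41, 7.95 and 129 in day 3 enteroids labelled *Mtgr1-/-*. Of the 34 immune markers, 4 to 16 were listed at 0 in the day 1 libraries and 8 to 21 in those of day 3. All 12 epithelial markers were detected in every library. In libraries of a mixed tissue, fewer cells of a type and less RNA per cell cannot be told apart. Calls that were lost without these libraries are named with the genes they touch. Recovered depth was 22035300 to 28622000 reads in 16 of the 18 libraries.

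The class II alpha and beta chains and the invariant chain were the genes with the largest differences in crypts. *Cd74*, the invariant chain (ENSMUSG00000024610.15, chromosome 18 of GRCm38, 60803848 to 60812652), was listed in mice 1, 2 and 3 at 37627, 37235 and 28161 normalized counts in WT crypts and at 2800.1, 6121 and 4463 in crypts labelled *Mtgr1-/-*. The groups did not overlap, and the log2 fold change was -3.00 (SE 0.28, limma, adjusted p = 0.00255), a ratio of means of 7.7. *H2-Aa*, the alpha chain of I-A (ENSMUSG00000036594.15, chromosome 17, 34282744 to 34287823), was listed at 12966, 12249.8 and 7138 in WT crypts and at 508, 1014 and 976 in those labelled *Mtgr1-/-*. This was the largest fall of the 40 genes tested there (log2 fold change -3.71, SE 0.33, limma, adjusted p = 0.00199). *H2-Ab1*, the beta chain of I-A (ENSMUSG00000073421.6, 34257689 to 34269419), fell from 11031, 10996 and 8116 to 719, 1417 and 1363 (log2 fold change -3.16, SE 0.27, limma, adjusted p = 0.00186). *H2-Eb1*, the beta chain of I-E (ENSMUSG00000060586.11, 34305867 to 34316674), fell from 6453, 6682 and 4759.9 to 541, 964 and 921 (log2 fold change -2.91, SE 0.25, limma, adjusted p = 0.0017). In all 4 genes WT mouse 3 had the lowest WT value, and its summed immune markers were the highest.

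Without WT crypts of mouse 3 the 4 genes remained called, with log2 fold changes of -3.14 for *Cd74*, -3.99 for *H2-Aa*, -3.30 for *H2-Ab1* and -3.07 for *H2-Eb1* (limma, adjusted p between 0.00336 and 0.00651). The 30 immune markers tested in crypts had a median log2 fold change of -1.83, with 0 of 30 called by limma. Their sum without that library was 303 and 189.8 CPM in WT and 72.4 to 192 CPM in crypts labelled *Mtgr1-/-*, and *Cd74* was at 1501 and 1463 CPM in WT and at 116 to 257 CPM in those labelled *Mtgr1-/-*. The part of immune cells in the crypt difference was not tested.

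The same chains were lower at day 1, at lower levels. *Cd74* was listed at 7269, 5366 and 4325 in WT enteroids and at 431, 839 and 1156 in those labelled *Mtgr1-/-* (log2 fold change -2.88, SE 0.35, limma, adjusted p = 0.00049). *H2-Aa* was listed at 951, 644 and 313 against 32.7, 67.3 and 211 (log2 fold change -2.88, SE 0.66, limma, adjusted p = 0.00691). Both were thus below WT in every mouse labelled *Mtgr1-/-*. The corresponding values of *H2-Ab1* were 1565, 1259 and 1012 against 122, 217 and 372 (log2 fold change -2.55, SE 0.37, limma, adjusted p = 0.000957). For *H2-Eb1* they were 876, 596 and 569 against 108, 94.8 and 196 (log2 fold change -2.39, SE 0.29, limma, adjusted p = 0.000518). In none of the 4 genes did the groups overlap, and mouse 3 labelled *Mtgr1-/-* had the highest value of its group in each. Without that library the log2 fold changes were -3.20, -3.59, -2.94 and -2.71 for *Cd74*, *H2-Aa*, *H2-Ab1* and *H2-Eb1*, all called by limma (adjusted p between 0.000489 and 0.00216). Without WT mouse 3 of day 1 they were -3.06, -3.32, -2.70 and -2.51, all called as well (limma, adjusted p between 0.0022 and 0.00951).

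At day 3 none of these 4 chains was called, and mouse 3 labelled *Mtgr1-/-* stood apart. *Cd74* was listed at 1689, 1354 and 769 in WT enteroids and at 109, 361 and 1569.7 in those labelled *Mtgr1-/-* (log2 fold change -1.60, SE 0.82, limma, adjusted p = 0.123). *H2-Aa* was listed at 146, 70.4 and 51.3 against 2.28, 32.8 and 377, and *H2-Eb1* at 158, 143 and 79.4 against 25.03, 43.7 and 383. *H2-Ab1* was listed at 458, 376 and 185 against 25.03, 109 and 458. Mice 1 and 2 labelled *Mtgr1-/-* were below every WT mouse in all 4 genes, while mouse 3 was above every WT mouse in *H2-Aa* and *H2-Eb1*. That library also had *Lyz2*, a lysozyme gene of myeloid cells, at 637 normalized counts, against 2.69 to 27.8 in the other 5. Without it, all 4 chains were called lower by limma, with log2 fold changes of -2.60 for *Cd74* (adjusted p = 0.00484), -2.96 for *H2-Aa* (adjusted p = 0.0288), -2.57 for *H2-Ab1* (adjusted p = 0.0108) and -1.84 for *H2-Eb1* (adjusted p = 0.00538). The number of genes called lower at day 3 was then 9 in place of 4, and the number called higher 17 in place of 20. Shares over all genes were not counted for that fit.

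**Figure D2:**
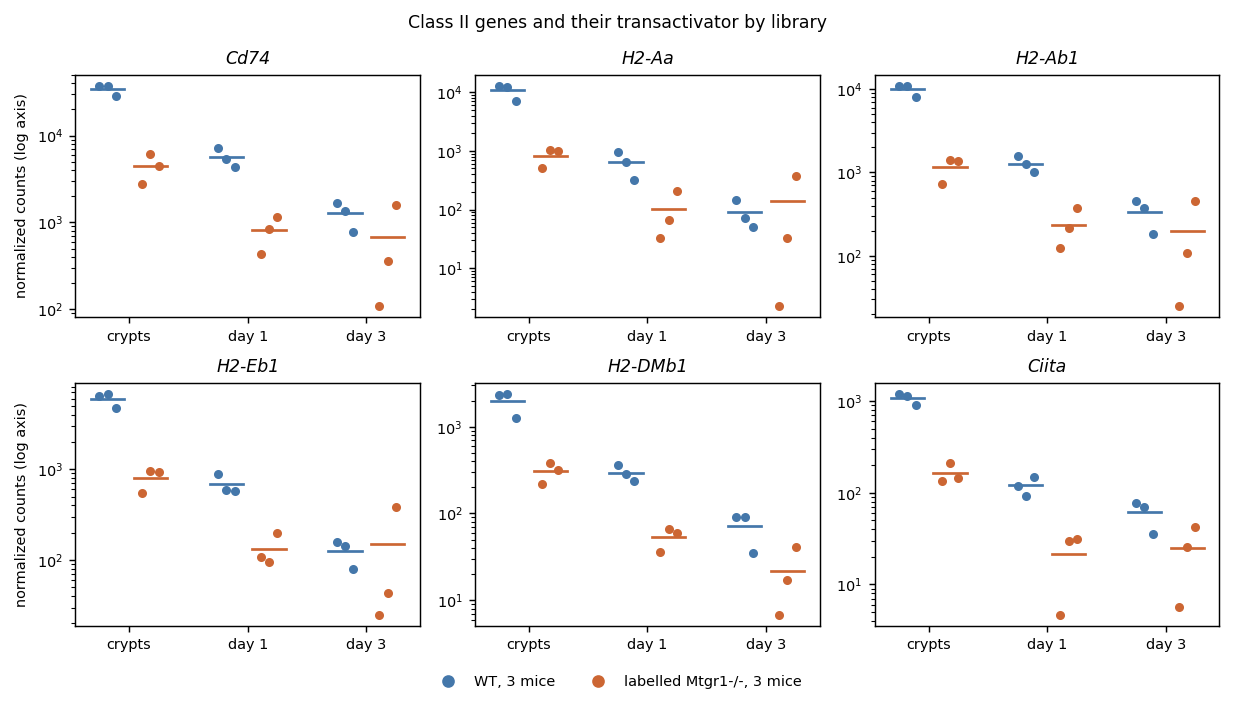
Normalized counts (log axis) of *Cd74*, *H2-Aa*, *H2-Ab1*, *H2-Eb1*, *H2-DMb1* and *Ciita* in each of 18 libraries by time point, with 1 point per mouse in the order 1, 2 and 3, and lines at the mean of 3 mice per genotype. In crypts and at day 1 the points labelled *Mtgr1-/-* lie below those of WT, and at day 3 the highest of them, mouse 3, lies within or above the range of the WT points.

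The peptide editors of class II followed the chains. H2-DM removes the invariant chain fragment from class II molecules in endosomes. *H2-DMa*, its alpha chain (ENSMUSG00000037649.10, 34119541 to 34139101), was listed at 1716, 1745 and 1136 in WT crypts and at 368, 475 and 381 in those labelled *Mtgr1-/-* (log2 fold change -1.89, SE 0.19, limma, adjusted p = 0.00386). It was lower at day 1, at 277, 272 and 287 against 86.3, 108 and 109 (log2 fold change -1.46, SE 0.15, limma, adjusted p = 0.000302). At day 3 it was lower by less, at 184, 204 and 147 against 87.6, 108 and 141 (log2 fold change -0.67, SE 0.21, limma, adjusted p = 0.0251). Without WT mouse 3 the crypt difference was -2.09 (limma, adjusted p = 0.00216). The groups of *H2-DMa* did not overlap at any time point, although mouse 3 labelled *Mtgr1-/-* was close to WT mouse 3 at day 3.

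*H2-DMb1*, a beta chain of H2-DM (ENSMUSG00000079547.4, 34153072 to 34160230), fell in crypts from 2309.5, 2364 and 1277 to 219, 380.5 and 316 (log2 fold change -2.68, SE 0.29, limma, adjusted p = 0.00497). Day 1 enteroids held 359, 285 and 235 against 36.2, 65.4 and 59.6 (log2 fold change -2.45, SE 0.27, limma, adjusted p = 0.00035), and at day 3 at 92.3, 90.8 and 34.8 against 6.83, 16.9 and 41.5 (log2 fold change -1.90, SE 0.63, limma, adjusted p = 0.0304). Its groups overlapped at day 3 through mouse 3 of both genotypes. The day 3 calls of *H2-DMa* (adjusted p between 0.0585 and 0.098) and *H2-DMb1* (adjusted p between 0.0534 and 0.105, limma) were lost without WT mouse 1, without WT mouse 2 or without mouse 1 labelled *Mtgr1-/-*, and that of *H2-DMb1* also without mouse 2 labelled *Mtgr1-/-*. Of its transcript sequence, 22.7% of all stretches of 50 bases, the read length, also occurs in *H2-DMb2*, so that reads could be split between them. *H2-DMb2* itself, *H2-Oa* and *H2-Ob*, the last 2 being the chains of the inhibitor of H2-DM, were at most 6.71 normalized counts in WT crypts of mice 1 and 2. WT crypts of mouse 3 held 117, 24.2 and 105 of them, and *H2-Eb2* and *H2-M2* were likewise highest there, at 35.7 and 47.2. In crypts *H2-DMb2* (log2 fold change -1.46, limma, adjusted p = 0.583) and *H2-Ob* (-0.80, adjusted p = 0.817) were tested and not called. In enteroids these 5 genes and *H2-Ea-ps* were under the minimum mean of 10 and were not tested.

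The transactivators differed from each other. *Ciita*, the class II transactivator (ENSMUSG00000022504.10, chromosome 16, 10480059 to 10528418), was listed at 1188, 1132 and 898 in WT crypts and at 135, 209 and 144 in those labelled *Mtgr1-/-* (log2 fold change -2.73, SE 0.20, limma, adjusted p = 0.00103). At day 1 it was listed at 119.8, 91.6 and 149 against 4.66, 29.4 and 30.9 (log2 fold change -2.75, SE 0.64, limma, adjusted p = 0.0074), and at day 3 at 77.98, 69.5 and 35.8 against 5.69, 25.8 and 42.7, not called (log2 fold change -1.57, SE 0.65, limma, adjusted p = 0.0689). *Ciita* thus fell in the same time points as the class II chains, in crypts also without WT mouse 3 (log2 fold change -2.85, limma, adjusted p = 0.00322) and at day 1 also without WT mouse 3 (-2.58, adjusted p = 0.0297). Its day 3 difference was called without mouse 3 labelled *Mtgr1-/-* (log2 fold change -2.14, limma, adjusted p = 0.0216), and also when each library was scaled to its own total (-1.76, adjusted p = 0.0428).

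*Nlrc5*, the class I transactivator (ENSMUSG00000074151.13, chromosome 8, 94434356 to 94527272), was lower in crypts labelled *Mtgr1-/-* and higher in day 3 enteroids. It was listed at 378, 409.8 and 442 in WT crypts against 185, 172 and 238 (log2 fold change -1.06, SE 0.16, limma, adjusted p = 0.0158). In day 1 enteroids it stood at 55.8, 95.8 and 51.96 in WT and at 138, 55 and 246 in those labelled *Mtgr1-/-*, so that the groups overlapped (log2 fold change 0.91, SE 0.51, limma, adjusted p = 0.163). In day 3 enteroids it stood at 17.03, 5.34 and 3.87 against 45.5, 30.8 and 55.02, with no overlap (log2 fold change 2.41, SE 0.52, limma, adjusted p = 0.00472). The crypt call was lost without WT mouse 1 (adjusted p = 0.0728), without WT mouse 2 (adjusted p = 0.0797) and without mouse 1 labelled *Mtgr1-/-* (adjusted p = 0.0637), with log2 fold changes of -1.11, -1.05 and -1.01 (limma). At day 1 *Nlrc5* was called higher without mouse 2 labelled *Mtgr1-/-* (log2 fold change 1.48, limma, adjusted p = 0.00733).

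Class Ia heavy chains and the light chain were high in every library and higher in enteroids labelled *Mtgr1-/-* than in WT enteroids. *H2-K1* (ENSMUSG00000061232.16, 33996017 to 34000347) was listed at 27043, 26721 and 22579 in WT crypts and at 20379, 17340 and 26516 in those labelled *Mtgr1-/-*, and was not called (log2 fold change -0.27, SE 0.18, limma, adjusted p = 0.491). At day 1 it was listed at 15079.9, 14174 and 11509 against 30685, 22044 and 39012 (log2 fold change 1.14, SE 0.21, limma, adjusted p = 0.00269), and at day 3 at 10964, 11263 and 11114 against 17203, 24770.3 and 19352 (log2 fold change 0.86, SE 0.13, limma, adjusted p = 0.00102). In both sets of enteroids every library labelled *Mtgr1-/-* was above every WT library, and without mouse 3 labelled *Mtgr1-/-* the difference was 0.95 at day 1 (limma, adjusted p = 0.00697) and 0.89 at day 3 (adjusted p = 0.00345). *H2-D1* (ENSMUSG00000073411.11, 35262730 to 35267499) had the same order, with 20726, 20874 and 17102 against 15444, 14392 and 20339 in crypts (log2 fold change -0.24, SE 0.17, limma, adjusted p = 0.505). At day 1 its counts were 10749, 9359 and 8849 against 21224, 15282 and 29126 (log2 fold change 1.14, SE 0.22, limma, adjusted p = 0.00319) and at day 3 6148, 6450.1 and 6495 against 10959, 13313 and 12911 (log2 fold change 0.96, SE 0.09, limma, adjusted p = 0.000121).

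*B2m*, which encodes beta-2-microglobulin (ENSMUSG00000060802.8, chromosome 2, 122147686 to 122153083), was listed at 27934, 25953 and 24044 in WT crypts and at 21426, 17328 and 21830.2 in those labelled *Mtgr1-/-*. The groups did not overlap there, but the difference was not called (log2 fold change -0.37, SE 0.14, limma, adjusted p = 0.217). *B2m* was higher at day 1, at 9097, 8155 and 5924 against 18676, 10533 and 22476 (log2 fold change 1.11, SE 0.28, limma, adjusted p = 0.0108). Without mouse 3 labelled *Mtgr1-/-* the day 1 difference was 0.88 (limma, adjusted p = 0.0354), and the count of genes called at day 1 was then 14 higher and 8 lower, and 14 higher and 7 lower without WT mouse 3. Shares over all genes were not counted for these fits, and those of the main fit do not apply to them. *B2m* was also higher at day 3, at 6609, 6821 and 6542 against 9809, 14909.9 and 12242 (log2 fold change 0.87, SE 0.14, limma, adjusted p = 0.00133). In CPM, *B2m* of WT mice was 2.87 to 3.72 times as high in crypts as at day 1, while in mice labelled *Mtgr1-/-* the ratio was 1.12 to 1.88.

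**Figure D3:**
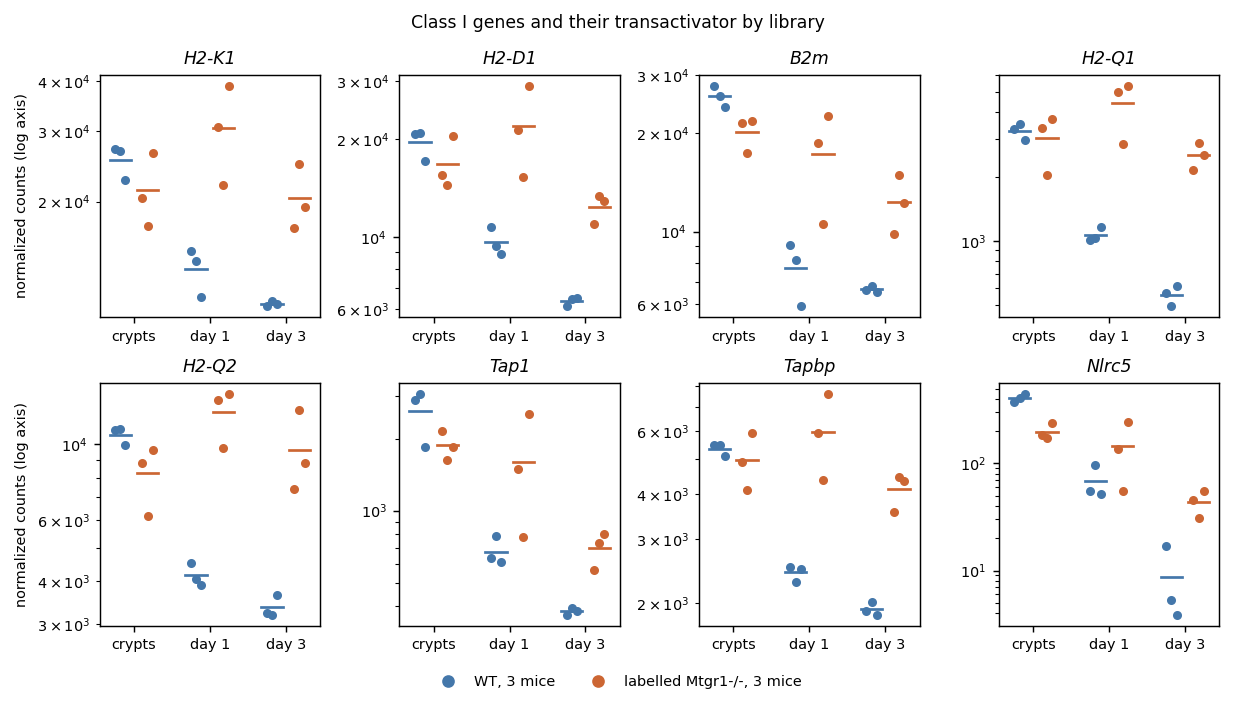
Normalized counts (log axis) of 8 class I genes in each of 18 libraries by time point, with 1 point per mouse in the order 1, 2 and 3, and lines at the mean of 3 mice per genotype. The WT points fall from crypts to enteroids, and the enteroids labelled *Mtgr1-/-* lie above WT at day 3 in all 8 genes.

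Class Ib and other class I-like H2 genes, which include molecules seen by natural killer and unconventional T cells, held 16 genes tested. In crypts 0 were higher, 2 lower and 14 not called by limma (all genes, 1.58% and 3.15%), with a median log2 fold change of -0.39. At day 1 11 were higher, 0 lower and 5 not called, where 30% and 28.9% of all genes were higher and lower, and at day 3 8 were higher, 2 lower and 6 not called (median 0.64), where 29.9% and 29.1% of all genes were. Many of these genes are near copies of each other, so that Salmon may have split their reads. For each of 15 of the 44 genes, at least 10% of the 50-base stretches of their transcripts also occur in transcripts of other genes. Among the genes of both classes under that share, 0 were higher, 8 lower and 17 not called in crypts (all genes, 1.58% and 3.15%). At day 1 9 were higher, 6 lower and 9 not called (30% and 28.9%), so these pooled counts lay not far from those shares. The 9 higher were class I genes, among them *H2-Bl*, *H2-T18* and *H2-T24* of this group. The 6 lower were class II genes and *Ciita*. At day 3 14 were higher, 1 lower and 9 not called (29.9% and 29.1%).

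*H2-Q1* and *H2-Q2* lie in the Q region of the MHC (35320405 to 35325099 and 35342242 to 35346762). *H2-Q1* was listed at 3356, 3543 and 2956 in WT crypts against 3365, 2032 and 3713, and its groups overlapped (log2 fold change -0.16, SE 0.22, limma, adjusted p = 0.769). At day 1 it was listed at 1005, 1035 and 1166 against 5013, 2859 and 5349 (log2 fold change 1.99, SE 0.22, limma, adjusted p = 0.000376), and at day 3 at 566, 494 and 609.9 against 2148, 2874 and 2523 (log2 fold change 2.17, SE 0.13, limma, adjusted p = 1.29e-05). The ratio of means was 4.12 at day 1 and 4.52 at day 3. *H2-Q2*, listed at 10980.3, 11072 and 9956 against 8846, 6183 and 9629 in crypts, was not called there (log2 fold change -0.40, SE 0.17, limma, adjusted p = 0.281). It was higher at day 1, at 4521, 4044 and 3880.4 against 13479.6, 9719.8 and 13979.7 (log2 fold change 1.56, SE 0.15, limma, adjusted p = 0.000213), and at day 3, at 3223, 3189 and 3626 against 7426, 12547 and 8829.9 (log2 fold change 1.49, SE 0.17, limma, adjusted p = 0.000279). The stretches shared with other genes made up 15% of *H2-Q1* and 16.1% of *H2-Q2*, mostly with each other.

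*H2-Q10*, known as a secreted class I molecule of the liver, was listed at 997, 1603 and 505 in WT enteroids of day 1 and at 4988, 2786 and 4813 in those labelled *Mtgr1-/-* (log2 fold change 2.12, SE 0.40, limma, adjusted p = 0.00307). At day 3 it was listed at 1939, 2042 and 1703 against 3234, 3996 and 2983 (log2 fold change 0.84, SE 0.12, limma, adjusted p = 0.000805). In contrast to *H2-K1* and *B2m*, its level in WT mice was lower in crypts, at 473, 534 and 398. *H2-Bl* was listed at 109, 172 and 116 against 422, 412 and 581 at day 1 (log2 fold change 1.84, SE 0.22, limma, adjusted p = 0.000468) and at 115, 99.8 and 85.2 against 303, 401 and 252 at day 3 (log2 fold change 1.65, SE 0.20, limma, adjusted p = 0.000331). *H2-Q5*, annotated as a polymorphic pseudogene, was listed at 173, 198 and 266 in WT crypts against 141, 86.6 and 150.4. It was listed at 37.5, 73.9 and 45.3 against 103, 114 and 178 at day 1 (log2 fold change 1.33, SE 0.32, limma, adjusted p = 0.00819) and was not called at day 3. *H2-Q4* was higher at day 1 by a log2 fold change of 0.69 (limma, adjusted p = 0.0288), a call lost in 4 of 6 fits that each left out 1 library (adjusted p between 0.0649 and 0.0906). Stretches shared with other genes made up 19% of *H2-Q10*, 9.4% of *H2-Bl*, 36.4% of *H2-Q5* and 21.8% of *H2-Q4*.

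*H2-Q7*, which encodes the membrane-anchored molecule Qa-2, and its near copy *H2-Q6* went the other way. *H2-Q7* was listed at 643, 719.7 and 1738 in WT crypts and at 206, 154 and 319 in those labelled *Mtgr1-/-* (log2 fold change -2.10, SE 0.42, limma, adjusted p = 0.0414). Without WT mouse 3, which had the highest value, the log2 fold change was -1.65 (adjusted p = 0.0423), and leaving out any other of the 6 libraries gave an adjusted p between 0.0617 and 0.126 (limma). At day 1 the groups overlapped, at 257, 346 and 188 against 174, 86.3 and 362, and at day 3 *H2-Q7* was lower, at 155, 116 and 88.1 against 36.4, 37.8 and 67.4 (log2 fold change -1.34, SE 0.30, limma, adjusted p = 0.00591). *H2-Q6* was listed at 312, 423 and 829 against 140.3, 105 and 194 in crypts (log2 fold change -1.75, SE 0.39, limma, adjusted p = 0.0552) and overlapped at day 1, at 212, 181 and 133 against 327, 123 and 572 (limma, adjusted p = 0.243). At day 3 it was lower, at 127, 102 and 73.6 against 58.03, 45.7 and 71.9 at day 3 (log2 fold change -0.77, SE 0.26, limma, adjusted p = 0.0332). The day 3 call of *H2-Q6* was lost without WT mouse 1 or 2 and without mouse 1 or 2 labelled *Mtgr1-/-* (limma, adjusted p between 0.0537 and 0.124). Of the stretches of these 2 genes, 32% in *H2-Q6* and 26.4% in *H2-Q7* occur in other genes. *H2-M3*, which presents N-formylated bacterial peptides, was also lower in crypts, at 136, 133 and 131 against 40.5, 67.5 and 49.8 (log2 fold change -1.36, SE 0.24, limma, adjusted p = 0.0262), and was not called in enteroids. That call was kept only without mouse 2 labelled *Mtgr1-/-*, and the other 5 fits that left out 1 library gave adjusted p between 0.0508 and 0.129 (limma), with log2 fold changes from -1.37 to -1.19.

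Of the T region genes, *H2-T22*, *H2-T23*, *H2-T24* and the one listed as *H2-T18* were higher on both days of culture. *H2-T23*, which encodes Qa-1, a ligand of inhibitory receptors on natural killer cells, was listed at 5109.7, 4951 and 5326 in WT crypts against 3731, 3283 and 4914 and was not called (log2 fold change -0.39, SE 0.15, limma, adjusted p = 0.232). At day 1 it was listed at 2104, 1792 and 1732 against 5540.4, 3753 and 7818 (log2 fold change 1.55, SE 0.24, limma, adjusted p = 0.00127), and at day 3 at 1270, 1215 and 1241 against 2203, 2897 and 2670.1 (log2 fold change 1.05, SE 0.11, limma, adjusted p = 0.000143). *H2-T22*, known as a ligand of gamma delta T cells, was listed at 662, 651 and 661 against 1693, 1103 and 2169 at day 1 (log2 fold change 1.28, SE 0.22, limma, adjusted p = 0.00195) and at 462, 507 and 514 against 824, 914 and 877 at day 3 (log2 fold change 0.82, SE 0.09, limma, adjusted p = 0.000225). Of the 50-base stretches of *H2-T22*, 34.5% occur in other genes, mostly in *H2-T10*, and of those of *H2-T23* 13.6% do. *H2-T24* was low in every library, at 36.4, 34.6 and 81.7 in WT crypts against 82.9, 28.5 and 67.1. It was listed at 6.4, 13.5 and 14.2 against 100.3, 27.5 and 202 at day 1 (log2 fold change 2.83, SE 0.69, limma, adjusted p = 0.00887). At day 3 it was listed at 1.79, 1.78 and 2.9 against 19.3, 24.9 and 21.3 (log2 fold change 2.87, SE 0.40, limma, adjusted p = 0.000676). There it passed the minimum mean of 10 only through the libraries labelled *Mtgr1-/-*.

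The row with the symbol *H2-T18* has the identifier ENSMUSG00000054128.16, which GENCODE M21 names *H2-T3*, the gene of the thymus leukemia antigen known from intestinal epithelium. It was listed at 4987, 4926 and 5328 in WT crypts against 4745, 3306 and 4674 and was not called (log2 fold change -0.28, SE 0.15, limma, adjusted p = 0.384). In day 1 enteroids it was listed at 1267, 1336 and 1575 against 2524, 1889 and 2958 (log2 fold change 0.80, SE 0.17, limma, adjusted p = 0.00464) and at day 3 at 1121, 1173 and 1205 against 1543, 2182 and 1991 (log2 fold change 0.69, SE 0.13, limma, adjusted p = 0.00228). Both enteroid differences were smaller than those of *H2-T23*, a comparison for which no test was made. *H2-T-ps*, an unprocessed pseudogene, was listed at 38.3, 26.7 and 46.04 in WT crypts against 24.5, 11.4 and 20.3. Day 1 enteroids held 20.1, 18.7 and 17.6 against 40.8, 25.6 and 54.04 (log2 fold change 0.99, SE 0.34, limma, adjusted p = 0.0346), a call lost in 5 of 6 fits that left out 1 library. Of the 50-base stretches of *H2-T-ps*, 29.4% occur in other genes, mostly in *H2-T23*. *H2-K2* and *H2-T10* were called at no time point, with log2 fold changes of -0.94, 0.40 and -0.45 for *H2-T10* in crypts, at day 1 and at day 3.

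Peptide transport and loading genes were not called in crypts (0 of 7 in either direction by limma) and rose in part in enteroids, with 4 of 7 called higher at day 1 (all genes, 30%) and 5 of 7 at day 3 (29.9%). *Tap1*, a subunit of the TAP transporter (ENSMUSG00000037321.17, 34187553 to 34197225), was listed at 2911, 3062 and 1852 in WT crypts against 2146, 1627 and 1847. It was listed at 631, 781 and 608 against 1494, 773 and 2526 at day 1 (log2 fold change 1.09, SE 0.37, limma, adjusted p = 0.0351), where mouse 2 labelled *Mtgr1-/-* lay within the WT range. At day 3 it was listed at 367, 390.1 and 380.4 against 567, 729.7 and 802, with no overlap (log2 fold change 0.87, SE 0.14, limma, adjusted p = 0.00112). The day 1 call of *Tap1* was lost in 5 of 6 fits that left out 1 library (adjusted p between 0.0586 and 0.095). *Tap2*, its other subunit (ENSMUSG00000024339.12, 34203527 to 34216321), was listed at 1787, 1918 and 1728 in WT crypts against 1314, 1134 and 1501 (log2 fold change -0.47, SE 0.12, limma, adjusted p = 0.0811). It was higher at day 1, at 562, 511 and 639 against 1062, 823 and 1458 (log2 fold change 0.93, SE 0.20, limma, adjusted p = 0.00535), and at day 3, at 269.8, 269 and 279.8 against 547, 787 and 712 (log2 fold change 1.30, SE 0.14, limma, adjusted p = 0.000197).

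*Tapbp*, which encodes tapasin, the bridge between TAP and empty class I molecules (ENSMUSG00000024308.15, 33915899 to 33929292), was listed at 5461, 5477 and 5099 in WT crypts against 4914, 4101 and 5914. In enteroids it was listed at 2515, 2279 and 2489 against 5922, 4388 and 7571 at day 1 (log2 fold change 1.26, SE 0.18, limma, adjusted p = 0.000937) and at 1897, 2015 and 1855 against 3562, 4465 and 4346 at day 3 (log2 fold change 1.09, SE 0.10, limma, adjusted p = 8.75e-05). *Tapbpl*, a peptide editor related to tapasin, was called at day 3 only (log2 fold change 0.49, limma, adjusted p = 0.017). The chaperone calnexin, *Canx*, was higher by a log2 fold change of 0.27 at day 1 (limma, adjusted p = 0.0364) and 0.33 at day 3 (limma, adjusted p = 0.00978), and the day 1 call was kept in 1 of 6 fits that left out 1 library, without mouse 2 labelled *Mtgr1-/-*. The day 1 difference turned to -0.11 under quantile normalization and -0.053 when libraries were scaled to their totals. *Calr*, calreticulin, and *Erap1*, the aminopeptidase that trims peptides in the endoplasmic reticulum, were called at no time point in the main fit. Their log2 fold changes there lay between -0.18 and 0.25. No label pairs mice of the 2 genotypes, but same-numbered day 1 libraries deviated together. With the replicate number as a block, *Calr* (adjusted p = 0.0252), *Tapbpl* (adjusted p = 0.0168), *Psmb10* (adjusted p = 0.0257) and *H2-K2* (adjusted p = 0.0398, limma) were called higher at day 1 as well, 22 genes in all. In that fit 8027 of all 12587 genes were called in either direction, against 7413 in the main fit.

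The immunoproteasome subunits, which replace 3 standard subunits of the proteasome, were called higher at day 3 only. *Psmb8* was listed at 4695, 5035 and 3392 in WT crypts against 3509, 3094 and 3087 (log2 fold change -0.42, SE 0.16, limma, adjusted p = 0.217). In day 1 enteroids it was listed at 1699, 1441 and 1337 against 2171, 1444 and 2852 (log2 fold change 0.48, SE 0.23, limma, adjusted p = 0.103), and at day 3 at 711, 629.7 and 524 against 922, 1313 and 1332 (log2 fold change 0.93, SE 0.17, limma, adjusted p = 0.00224). *Psmb9* was listed at 332, 375 and 318 against 393, 562 and 636 at day 3 (log2 fold change 0.61, SE 0.18, limma, adjusted p = 0.0191). *Psmb10* was listed at 1638, 1957 and 1812 against 2014, 2725 and 3048 (log2 fold change 0.51, SE 0.15, limma, adjusted p = 0.0197). All 3 were without overlap at day 3. In crypts, *Psmb8* (adjusted p = 0.0313), *Psmb9* (adjusted p = 0.0476) and *Tap1* (adjusted p = 0.0476) were called lower by limma once WT mouse 3 was left out, with log2 fold changes of -0.59, -0.61 and -0.68. At day 3 *Psmb9*, *Psmb10* and *Tapbpl* lost their calls without mouse 3 labelled *Mtgr1-/-* (limma, adjusted p between 0.0556 and 0.0628) and without WT mouse 1 (between 0.0589 and 0.0726), and *Psmb9* and *Psmb10* also without WT mouse 3 (0.0675 and 0.0552).

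In enteroids, libraries labelled *Mtgr1-/-* had larger totals of normalized counts, with a mean of 29813400 against 23833200 in WT at day 1 and of 27576300 against 23960900 at day 3. Dividing each library by its total moved the median log2 fold change of all genes to -0.33 at day 1 and -0.20 at day 3. On that scale 14 genes were called higher and 8 lower at day 1, and 16 higher and 6 lower at day 3 (limma). The shares of all genes called were not computed on that scale, and those of the main fit do not apply to it. Of the genes newly called lower, *Ciita* at day 3 is given above, and the others were not followed by name. Calls lost at day 1 were those of *Tap1*, *H2-Q4*, *H2-T-ps* and *Canx*, and at day 3 those of *Canx*, *Tapbpl*, *Psmb9* and *Psmb10*. *H2-Ke6*, which encodes a hydroxysteroid dehydrogenase and no MHC chain, was called at no time point.

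Markers of other cell types of the epithelium also differed by genotype in the same enteroids. Of 14 enterocyte markers 13 were higher and 1 lower at day 1, and 13 were higher at day 3. Of 11 markers of secretory cells all 11 were lower on both days, and of 8 markers of crypt base stem cells 8 were lower at day 1 and 7 at day 3. Of 5 tuft cell markers tested, 4 were lower on both days and 0 were called in crypts. In crypts, 7 of 11 secretory markers were lower, while of the 8 stem cell markers 1 was lower and 7 were not called. Of all genes, 3.15% were called lower there. The part of these cell types in the differences of the MHC genes was not tested.

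**Figure D4:**
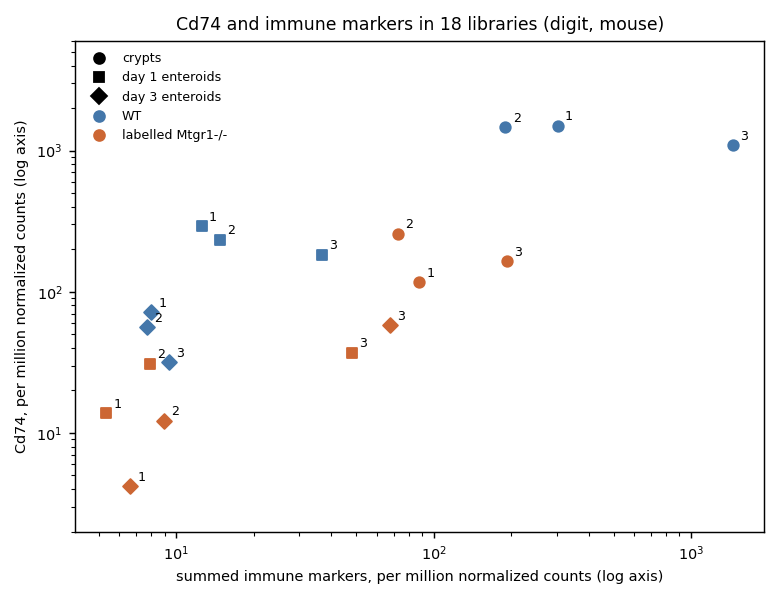
*Cd74* (y axis) against the sum of 34 immune markers (x axis), both in CPM of normalized counts on log axes, in 18 libraries with the mouse number beside each point. Within each time point WT mouse 3 has the highest immune sum of the WT libraries and the lowest *Cd74*, while day 3 mouse 3 labelled *Mtgr1-/-* is high in both.

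Whether the genotype difference changed between time points was tested in all 18 libraries, over 12145 genes. Of 38 MHC and antigen presentation genes, the difference was shifted upwards from crypts to day 1 in 26 and downwards in 0, while 20.3% and 21.1% of all genes were shifted (limma, adjusted p below 0.05). From crypts to day 3, 20 were shifted upwards and 0 downwards, against 16.5% and 15.1% of all genes, and at an unadjusted p below 0.05 the downward count was 0 in both. The median change over the 38 genes was 1.36 and 1.18 on the log2 scale. Between day 1 and day 3, 0 were called in either direction by limma, with 2 in each at an unadjusted p below 0.05, and 0.0247% and 0.00823% of all genes were called. Of the class II chains, editors and *Ciita*, *H2-DMa* alone was called, from crypts to day 3 (change 1.21, SE 0.28, adjusted p = 0.00658, limma), and the other 6 were not called in any of the 3 comparisons. The count from crypts to day 1 was 16 without WT mouse 1, and that from crypts to day 3 was 11 without WT mouse 1 or without WT mouse 2. Shares over all genes were not counted without these mice.

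Levels of different genes can be set side by side only per length. On the scale of CPM per kilobase of merged exons, the level of *B2m* was highest in WT crypts, with a mean of 1189 (1084 to 1296), followed by *Cd74* at 805 (650.1 to 894). *H2-K1* was at 341 (298 to 367) and *H2-D1* at 299 (257 to 321), ranges that overlapped. *H2-Ab1*, *H2-Eb1* and *H2-Aa* were at 154, 121 and 112, with ranges from 72.8 to 171 that also overlapped. In crypts labelled *Mtgr1-/-*, *Cd74* was at 107 (69.4 to 153) and *H2-Aa* at 8.76 (5.56 to 11.2), while *B2m* was at 941 (847 to 1036). These class II levels fell further in culture. Within each WT mouse, *Cd74* in CPM was 5.15 to 6.26 times as high in crypts as at day 1 and 21 to 34.4 times as high as at day 3, and *H2-Aa* was 83.7 to 164 times as high in crypts as at day 3. These ratios span separately normalized tables and are given as a description.

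The sequences before the start sites of selected genes that fell (*H2-Aa*, *H2-M3*, *H2-Q7*) and selected genes that rose in enteroids (*H2-K1*, *B2m*) were compared. Class I and class II promoters are known to share a module to which the transactivators are recruited. RefSeq (GRCm38.p6) gave a start site for 30 of the 44 genes. Shown are up to 250 bases before the most upstream start, without bases of any annotated exon, with CCAAT and TGACG on either strand in capitals.
H2-Aa, chr17:34287824-34288073, minus strand: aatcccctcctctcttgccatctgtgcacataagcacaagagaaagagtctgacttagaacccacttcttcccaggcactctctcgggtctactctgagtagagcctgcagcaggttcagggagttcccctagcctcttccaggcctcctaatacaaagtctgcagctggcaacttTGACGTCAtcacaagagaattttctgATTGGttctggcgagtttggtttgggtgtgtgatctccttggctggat
H2-M3, chr17:37269984-37270219, plus strand: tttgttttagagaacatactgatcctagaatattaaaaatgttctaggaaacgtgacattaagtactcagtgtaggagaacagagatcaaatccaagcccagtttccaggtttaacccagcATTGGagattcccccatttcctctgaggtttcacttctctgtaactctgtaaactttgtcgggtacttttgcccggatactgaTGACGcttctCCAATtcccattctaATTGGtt
H2-Q7, chr17:35438905-35439154, plus strand: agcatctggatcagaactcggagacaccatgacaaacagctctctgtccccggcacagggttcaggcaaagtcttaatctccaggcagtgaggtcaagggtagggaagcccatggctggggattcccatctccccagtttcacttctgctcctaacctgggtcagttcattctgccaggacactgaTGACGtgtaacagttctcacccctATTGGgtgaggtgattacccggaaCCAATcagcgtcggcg
H2-K1, chr17:34000348-34000597, minus strand: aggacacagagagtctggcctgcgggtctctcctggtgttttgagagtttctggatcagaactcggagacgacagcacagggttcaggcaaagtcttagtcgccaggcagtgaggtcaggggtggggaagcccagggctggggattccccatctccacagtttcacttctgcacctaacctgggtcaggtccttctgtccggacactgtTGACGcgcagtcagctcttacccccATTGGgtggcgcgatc
B2m, chr2:122147437-122147685, plus strand: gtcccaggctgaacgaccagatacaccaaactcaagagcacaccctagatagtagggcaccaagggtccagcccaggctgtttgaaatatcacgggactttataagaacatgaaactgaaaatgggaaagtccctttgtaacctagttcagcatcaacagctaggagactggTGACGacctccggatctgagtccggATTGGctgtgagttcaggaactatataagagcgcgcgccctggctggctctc

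In each of these 5 promoters a TGACG, a core of the CREB binding site known as the X2 box of the module, was followed by a CCAAT, the binding motif of NF-Y known as its Y box. The starts of both motifs were 26 bases apart in *H2-Aa*, 25 in *H2-M3*, *H2-K1* and *B2m*, and 24 in *H2-Q7*. With a spacing of 24 to 26, a window chosen after the matches had been seen, the pair was found before 7 of 30 genes (also *H2-D1* and *Canx*) and in 0.259% of 27025 promoters of the same length. CCAAT alone was found in 25 of 30 and in 34.5% of all promoters, and TGACG in 12 of 30 and in 17.8%. GAAA repeated after any 2 bases, the core of interferon-stimulated elements, was found before *B2m*, *H2-T22* and *H2-T23*, and in 3.05% of all promoters. CANNTG, the E-box, was found in 18 of 30 and in 66.1% of all promoters. Matches on both strands were counted, and they describe the letters of these windows only. Genes with the spaced pair were thus found both among those lower in crypts and among those higher in enteroids. All 5 genes shown are among the 7 with the pair, so that finding it in each was fixed by their choice. Genes without the pair also lay on both sides. *H2-Eb1* and *H2-DMb1* were lower in crypts, and *Tap1*, *Tapbp*, *H2-Q2*, *H2-T22* and *H2-T23* were higher in enteroids.

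Genes around the pathway, from lists of regulators, peptide generation, chaperones, endosomal processing, class I-like molecules outside the H2 prefix and ligands of T cell costimulation, showed few calls in crypts. The counts in enteroids stand beside shares over all genes of 30% (higher) and 28.9% (lower) on day 1, and 29.9% and 29.1% on day 3. Of 25 regulators and interferon pathway genes, 0 were called in crypts (limma; the list's median log2 fold change was 0.0058), while 17 were higher and 5 lower at day 1 and again at day 3. *Stat2*, a transcription factor of interferon signalling, rose at day 1 (log2 fold change 1.61, limma, adjusted p = 0.0017). *Il22ra1*, a subunit of the interleukin-22 receptor, and *Socs1*, an inhibitor of cytokine signalling, were the largest at day 3 (1.35 and 1.26, adjusted p = 6.7e-05 and 0.00698). *Creb1* and *Rfxap*, both components of the complex at the MHC promoter module, were the largest falls at day 1 (-0.60 and -0.58, limma, adjusted p = 0.024 and 0.00885) and at day 3 (-0.55 and -0.55, adjusted p = 0.00247 and 0.00378).

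Of 15 genes of peptide generation, 0 were called in crypts, 4 were higher and 1 lower at day 1, and 3 were higher and 0 lower at day 3, with list medians of 0.055 and 0.012; these shares of the list are at or below those of all genes. *Lap3*, a leucine aminopeptidase, and *Psme2*, a subunit of the proteasome activator PA28, rose most at day 1 (log2 fold changes 1.16 and 0.81, limma, adjusted p = 0.00027 and 0.00239) and at day 3 (0.87 and 0.67, adjusted p = 0.00175 and 0.00154), and *Thop1*, a cytosolic oligopeptidase, fell at day 1 (-0.43, adjusted p = 0.0303). Of 11 chaperones of the endoplasmic reticulum, 5 were higher and 1 lower at day 1 and 2 higher and 1 lower at day 3, with 0 called in crypts. *P4hb*, a protein disulfide isomerase, and *Sel1l*, a component of the degradation machinery, rose at day 1 (1.28 and 0.73, limma, adjusted p = 0.000624 and 0.000635) and at day 3 (1.00 and 0.54, adjusted p = 0.00155 and 0.00481), while *Pdia6* fell at both (-0.37 and -0.35, adjusted p = 0.00545 and 0.0157).

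Endosomal proteases went against the class II chains in part. In crypts *Ctsl*, cathepsin L, was higher (log2 fold change 1.04, limma, adjusted p = 0.0137) and *Ctsh*, cathepsin H, was lower (-2.08, limma, adjusted p = 0.000173), and 9 of 11 genes were not called. On each day of culture 7 of 10 were higher and 1 lower. The largest were *Ctsd*, cathepsin D (1.52), and *Lgmn*, the asparaginyl endopeptidase (1.29), at day 1 (limma, adjusted p = 0.000232 and 0.000963), and *Ctsl* (1.48) and *Ctsd* (1.31) at day 3 (adjusted p = 0.000116 and 1.89e-05). The falls were *Ctsh* at day 1 (-1.27, limma, adjusted p = 0.0016) and *Cst3*, a cysteine protease inhibitor, at day 3 (-0.54, adjusted p = 0.0138). Of class I-like molecules outside the H2 prefix, 2 of 5 rose at day 1 and 4 of 7 at day 3, with *Fcgrt*, the neonatal Fc receptor, at 750.5 ± 66.6 in WT and 1693 ± 159 in those labelled *Mtgr1-/-* at day 1 (SD, n = 3; log2 fold change 1.17, limma, adjusted p = 0.000202). *Procr* rose on both days (1.56 and 3.56, limma, adjusted p = 0.033 and 0.000152) and *Azgp1* at day 3 (2.12, adjusted p = 0.00258). Mean counts of *Procr* were 6.93 in WT against 21.4 at day 1 and 3.95 against 54.5 at day 3. Those of *Azgp1* were 3.35 against 17.8 at day 3. Both WT means were under the minimum of 10, so these genes entered the test through the libraries labelled *Mtgr1-/-*. Their fold changes rest on low counts. Among 6 costimulatory and checkpoint ligands tested, *Cd276* (B7-H3) fell at day 1 (-0.99, limma, adjusted p = 0.000562) and *Icam1*, an adhesion molecule, rose at day 3 (0.87, adjusted p = 0.0112), with 0 called in crypts.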

How the data were processed

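RNA was measured in 18 libraries of mouse duodenal crypts and enteroids. Per the labels and methods, the authors trimmed single reads of 50 bases with fastp 0.20.0, quantified them with Salmon 1.3.0 on GENCODE mouse release 21 and normalized with DESeq2 1.26.0. The deposited signal is a normalized count per gene, made by the authors within the table of each time point, and their mean signal was not used. The authors' deposited log2 fold changes with standard errors, Wald score and p-values were not used either. Genes averaging 10 or more normalized counts entered limma 3.58.1 in R 4.3.3 (trend, two-sided, Benjamini-Hochberg over all genes, threshold 0.05) on log2(normalized count + 1), a scale that understates changes of low genes. For changes between time points, 1 fit took all 18 libraries, with a correlation within mice estimated at -0.0048. An exact permutation test of 3 against 3 libraries cannot go below p = 0.1.

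All deposited values (100%) were whole multiples of 1 step per library (tolerance 0.001 reads), and edgeR 4.0.16 and DESeq2 1.42.0 were run on the reads recovered in 16 libraries, leaving out 2 whose step was close to 1. Same-numbered libraries of the 2 genotypes deviated together at day 1 (r = 0.116, 0.231 and 0.216 across genes). In crypts r was also positive (0.0764, 0.274 and 0.346), though WT number 1 went more with number 2 labelled *Mtgr1-/-* (0.201). At day 3 r was -0.0067, -0.0023 and -0.016. The steps were tested on simulated data. Values in each library are given for genes called at an absolute log2 fold change of at least 1 and a mean of at least 50, for central genes of each role and for the 5 largest changes between time points. A gene of the pathway lists is not reported here by name. The genes, lists and rules were chosen with earlier results of these data known.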

Additional observations from a re-analysis of the deposited data

Results flagged for a closer look

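The genotype difference changed between time points in 10 results, the 5 largest per comparison, by a test of the change itself (limma on all 18 libraries). All were upward changes, labelled *Mtgr1-/-* minus WT.

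From crypts to day 1 the change was 2.62 for *H2-T24* (SE 0.83, adjusted p = 0.0209, limma), 2.47 for *H2-Q6* (SE 0.65, adjusted p = 0.00817), 2.15 for *H2-Q1* (SE 0.32, adjusted p = 0.000638), 2.10 for *H2-Q5* (SE 0.49, adjusted p = 0.00466) and 1.97 for *H2-T-ps* (SE 0.55, adjusted p = 0.0111). In each of the 5 genes, the change taken with its sign was higher in all 3 mice labelled *Mtgr1-/-* than in every WT mouse. The 5 were picked by the size of this change in the same libraries, so that separation adds no support. It was found in 29 of the 38 genes tested, and its share over all genes was not counted. *H2-Q1* shows the pattern most evenly. Its log2 level changed by -1.74, -1.77 and -1.34 in WT mice 1, 2 and 3 and by 0.57, 0.49 and 0.53 in those labelled *Mtgr1-/-*. These changes span separately normalized tables and are a description. In CPM, *H2-Q1* at day 1 was 0.30 to 0.43 times its crypt level in WT mice and 1.15 to 1.25 times in those labelled *Mtgr1-/-*. Of *H2-Q6* and *H2-Q5*, 32% and 36.4% of the 50-base stretches occur in other genes.

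From crypts to day 3 the change was 3.46 for *Nlrc5* (SE 0.69, adjusted p = 0.0035, limma), 2.66 for *H2-T24* (SE 0.83, adjusted p = 0.0264), 2.32 for *H2-Q1* (SE 0.32, adjusted p = 0.000389), 1.89 for *H2-Q2* (SE 0.26, adjusted p = 0.000444) and 1.77 for *Tap2* (SE 0.25, adjusted p = 0.00043). The log2 level of *Nlrc5* fell by 4.39, 6.02 and 6.51 in WT mice and by 2.44 or less in each of those labelled *Mtgr1-/-*. Its rank between genotypes thus turned over. The WT counts of *Nlrc5* at day 3 were low, so the size of its change rests on low counts. Over 11 alternative fits the change lay between 2.71 and 4.08 (limma, adjusted p between 0.00207 and 0.0281). These falls span separately normalized tables as well. *H2-T24* rests on normalized counts between 1.78 and 202, and its change to day 3 was 1.37 with a pseudocount of 8 (adjusted p = 0.145).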

How the results depend on the processing

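Values differ where a setting or a library was changed. Shares of all genes by direction were counted for the main fits only, so the counts below have no such share beside them. In crypts, quantile normalization called 1 gene higher and array weights called 1 higher and 18 lower, in place of 0 and 10. At day 3 the 4 genes called lower became 2 with the replicate block, 1 with array weights and 1 with edgeR. The replicate block otherwise gave 0 higher and 10 lower in crypts, where *H2-M3* was at adjusted p = 0.0502 and *H2-Q6* at 0.0237 (limma). It gave 22 higher and 7 lower at day 1 and 20 higher at day 3. No label pairs mice of the 2 genotypes by number. Every library of day 1 correlated best with its own number, as a hint from the data. Leaving out 1 library gave 7 to 12 lower in crypts, 14 to 25 higher at day 1 and 1 to 9 lower at day 3. Leaving out 1 mouse gave 16 to 26 and 11 to 24 upward changes from crypts to day 1 and day 3, and 0 to 5 downward changes from day 1 to day 3, the 5 without mouse 2 labelled *Mtgr1-/-*. With library totals, added after seeing the data, 2 downward changes from crypts to day 1 appeared in place of 0. *Canx* at day 1 turned to -0.11 (quantile) and -0.053 (library totals). Of 2179 values of single genes under an alternative, 1971 kept their direction and side of the threshold, 173 lost and 33 gained a call, and 2 reversed. The cause of these changes was not tested. The p-values measure the spread between 3 mice per genotype. Alleles that differ from the reference could change the counts of H2 genes, which was not tested.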
